A study of Homo sapiens with 12 samples.

Results

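The genes described here encode subunits and assembly factors of respiratory complex I, the NADH:ubiquinone oxidoreductase of the inner mitochondrial membrane. They were taken as every array probe whose gene symbol starts with NDUFA, NDUFB, NDUFC, NDUFS, NDUFV or NDUFAF, which gave 58 probes for 45 genes of 47323 probes and 20046 genes on the array. The group was chosen by a measured value, since NDUFA13 had been seen to be lower on arrays with GADD45a in their label, so every difference with that label is given below as a description, and limma's calls in it are counts that support nothing. Of the 45 genes, 44 code for protein and 1, NDUFB2-AS1, is an antisense transcript. A total of 41 genes passed the detection filter, a detection p below 0.01 on at least 2 arrays. NDUFA5, NDUFC2, NDUFS6 and NDUFB2-AS1 were detected on 0 arrays and were not tested.

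The RNA came from HEK293T cells, a human embryonic kidney line that carries the SV40 large T antigen, harvested 48 h after transient transfection of plasmid. The 6 groups, each of 2 independently transfected samples, received empty vector (Control), GADD45a, ING1b, GADD45a+ING1b, ING1bΔPHD or GADD45a+ING1bΔPHD. All encoded proteins are human, and ING1bΔPHD lacks the PHD domain of ING1b. GADD45a is a stress-inducible adaptor protein, and ING1b is a chromatin reader whose PHD finger binds methylated histone H3. Bulk RNA from a transient transfection averages cells with and without plasmid, and fewer expressing cells cannot be told apart from less RNA per cell.

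Complex I takes electrons from NADH, passes them through iron-sulfur clusters to ubiquinone and pumps protons across the inner membrane. A set of core subunits carries out catalysis, while accessory subunits surround and stabilise them. Assembly factors help to build the complex and are absent from the finished enzyme. Some core subunits are encoded by mitochondrial DNA. Those genes are not analysed here.

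The arrays detected between 14555 and 16301 probes each, with median intensities of 129 to 140. A first GADD45A probe (ILMN_1694075) went against the labels, with intensities of 744 to 1088 on the 6 unlabelled arrays and of 128 to 160, not detected, on the 6 labelled GADD45a. A second GADD45A probe (ILMN_2052208) was detected on all 12 arrays and was also lower on the labelled ones, by a log2 difference of -0.39. Whether the plasmids contain either probe's target was not analysed here, so the text speaks of arrays labelled GADD45a. If labelled and unlabelled arrays had been exchanged, every difference with the label would keep its size and turn its sign. NDUFA13 would then have the largest rise among the genes tested, each by its brightest probe, in place of the lowest value. The first GADD45A probe, not its gene's brightest, had a larger label difference of -4.08, which would turn as well. For ING1, 1 probe of 4 gave a detectable signal, with a label difference of -0.03. Its intensities were 177 to 245 on labelled and 195 to 266 on unlabelled arrays. That difference averages over the ING1b forms, so it is no check of the ING1b or ING1bΔPHD plasmids. Whether the ING1 signal was higher on arrays labelled with either form was not analysed here. Of the 7 HEK293 markers 5 were detected on all 12 arrays, while PAX2 and LHX1 were detected on none. Among 8 markers of blood, liver, fibroblast, endothelium and muscle on the array, 6 were detected on 0 arrays. ALB was detected on 12 arrays, with intensities up to 299, and COL1A1 on 9, up to 198.

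NDUFA13, also known as GRIM-19, is an accessory subunit that is needed for assembly of the complex and was also described as a binding partner of STAT3. The gene lies at chr19:19516225-19528198 (GRCh38.p14), and 1 probe (ILMN_1767139), detected on all 12 arrays, measured it. The 250 bases upstream of its start and of the NDUFV1 start, from RefSeq, are shown because these members had the lowest values with the GADD45a label and a single annotated start. The capitals mark CCGGAAG, the core motif of ETS factors such as GABPA, searched also as its reverse complement CTTCCGG. The stretches, both on the + strand, are chr19:19515975-19516224 and chr11:67606686-67606935.
NDUFA13: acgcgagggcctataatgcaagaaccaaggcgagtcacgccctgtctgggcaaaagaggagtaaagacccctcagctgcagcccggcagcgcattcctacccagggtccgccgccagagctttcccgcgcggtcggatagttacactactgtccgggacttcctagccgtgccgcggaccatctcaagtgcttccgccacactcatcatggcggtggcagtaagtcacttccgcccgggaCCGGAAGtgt
NDUFV1: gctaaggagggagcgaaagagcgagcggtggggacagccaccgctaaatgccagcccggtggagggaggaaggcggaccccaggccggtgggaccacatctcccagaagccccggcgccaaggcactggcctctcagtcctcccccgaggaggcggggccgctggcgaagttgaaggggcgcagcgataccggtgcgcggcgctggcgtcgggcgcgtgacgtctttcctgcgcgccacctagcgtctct
The NDUFA13 stretch held 1 match and the NDUFV1 stretch held 0. The motif occurred in 7 of 51 upstream stretches of complex I genes (13.7%) and in 8.52% of all 35116 stretches of this length. The genes with a match were NDUFA1, NDUFA13, NDUFAF4, NDUFAF8, NDUFB7, NDUFS1 and NDUFS3. A match describes the letters of the reference and is no measurement of binding.

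Normalized log2 intensities of NDUFA13 were 10.44 and 11.10 in Control, 10.95 and 10.73 in ING1b, and 10.92 and 10.85 in ING1bΔPHD. On the arrays labelled GADD45a they were 8.74 and 8.49 in GADD45a, 8.61 and 8.70 in GADD45a+ING1b, and 9.18 and 8.91 in GADD45a+ING1bΔPHD. All 6 labelled arrays, at 8.49 to 9.18, thus lay below all 6 others, at 10.44 to 11.10, and the gap between the sets exceeded the spread within either. In scanner intensity, before any correction, the ranges were 413 to 648 and 1682 to 2550. Among the 10645 genes tested, each by its brightest probe, NDUFA13 had the lowest difference of means. The first GADD45A probe, not its gene's brightest, was lower still, at -4.08. For NDUFA13 the difference was -2.06 (SE 0.12), a 4.17-fold lower signal. It was -2.15 against Control (SD of the groups 0.18 and 0.47, n = 2 each), -2.19 with ING1b in both groups (SD 0.06 and 0.16), and -1.84 with ING1bΔPHD in both groups (SD 0.19 and 0.05). Control replicate 1 was the lowest of the unlabelled arrays, and the difference from Control was -2.48 without it and -1.82 without Control replicate 2.

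**Figure D1:**
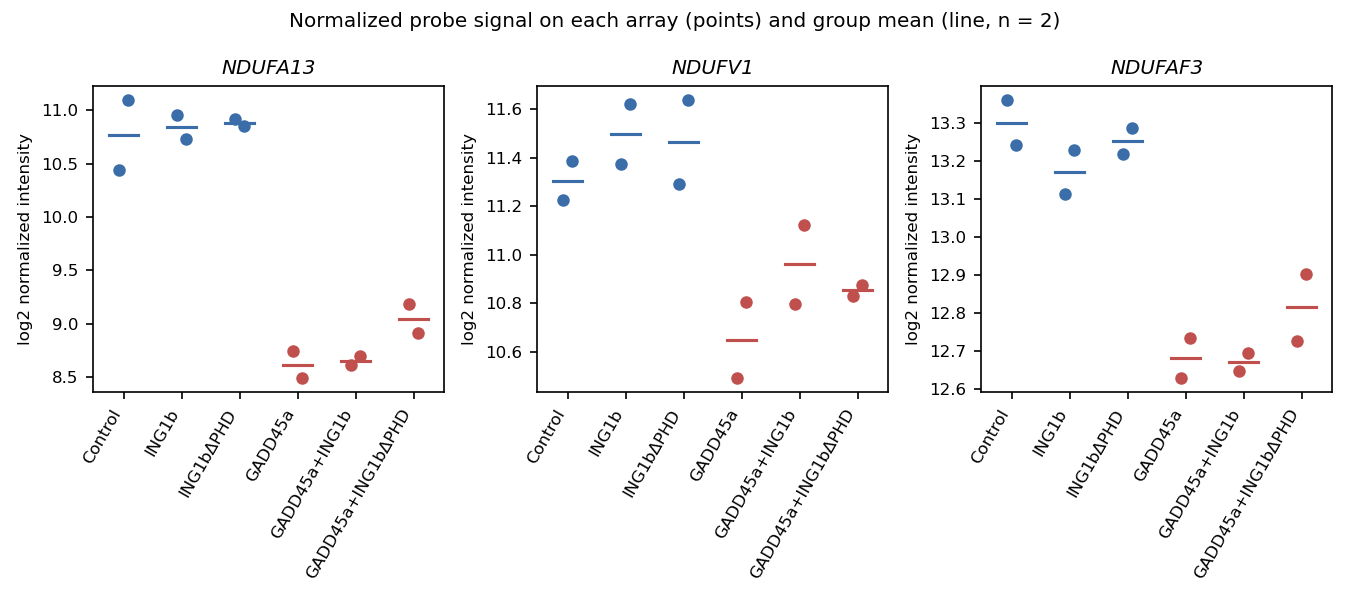
Normalized log2 intensity (y axis, log2 units, a separate scale per gene) of NDUFA13, NDUFV1 and NDUFAF3 on each array by group, with the group mean of 2 arrays as a line; blue marks groups without and red groups with GADD45a in the label. In each panel all 6 red points lie below all 6 blue points, and in NDUFA13 they span 8.49 to 9.18 against 10.44 to 11.10.

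NDUFV1, the core subunit that binds NADH and holds the flavin, was the second lowest member with the label. Its values were 11.22 and 11.39 in Control, 11.37 and 11.62 in ING1b, and 11.29 and 11.64 in ING1bΔPHD. With GADD45a in the label they were 10.49 and 10.80, with ING1b added 10.80 and 11.12, and with ING1bΔPHD added 10.83 and 10.88. The groups did not overlap, although the closest arrays, at 11.12 and 11.22, were near each other. The difference was -0.60 (SE 0.11), and -0.66, -0.54 and -0.61 within the 3 pairs of groups. NDUFAF3, an assembly factor that acts with NDUFAF4 at an early stage, measured 13.11 to 13.36 (median 13.24) on unlabelled arrays and 12.63 to 12.90 (median 12.71) on labelled ones, also without overlap. Its difference was -0.52 (SE 0.08), and -0.62, -0.50 and -0.44 within the pairs of groups. The gene's other 2 probes were detected on 0 arrays.

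These 3 genes were the members called lower with the label by limma (adjusted p below 0.05 over all genes), and 0 were called higher. Over all genes tested 1.69% were called lower, 1.02% higher and 2.71% in either direction. The same 3 genes were the members in which all 6 labelled arrays lay below the others, a pattern seen in 1.52% of all genes, and the opposite pattern occurred in 0 members and 0.808% of all genes. Because the rule used this contrast, nothing is read from these counts. Of the 41 genes 27 were below 0 and 14 above, with a median of -0.09, or -0.06 without NDUFA13. Over all genes 5655 of 10645 were below 0, with a median of -0.01. Scaling arrays to a common median in place of quantile normalization shifted the median of all genes by -0.17 and gave 8 members called lower, beside 16% of all genes called lower and 16.6% called in either direction.

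By role, all 6 core subunits measured were lower on labelled arrays. In the arm that accepts electrons, NDUFV1 was followed by NDUFS1, the largest iron-sulfur subunit, at -0.41 (SE 0.18), and NDUFV2, which holds another cluster, at -0.13 (SE 0.09). NDUFS1 was detected on 5 of 12 arrays only, and its replicates differed more than those of any other member (pooled SD 0.36, against a median of 0.13 over members and 0.21 over all genes). In the arm that reduces ubiquinone, NDUFS8 and NDUFS7, which carry iron-sulfur clusters, were each at -0.23 and NDUFS3 at -0.11. The rule used this contrast, so these values are a description.

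Among the 12 NDUFA accessory subunits, 10 were below 0, with a median of -0.12. After NDUFA13 came NDUFA6 at -0.21, NDUFA3 at -0.16 and NDUFA7 at -0.15, while NDUFA9, which sits near the ubiquinone site, was at 0.06 and NDUFA11 at 0.00. The 12 NDUFB and NDUFC subunits of the membrane arm lay between -0.18 and 0.11, with 8 below 0 and a median of -0.02. Among the 3 accessory NDUFS and NDUFV subunits, NDUFV3, which sits on the electron-input arm, was at -0.27 and the fifth lowest member, NDUFS4 at 0.01 and NDUFS5 at 0.04. The accessory subunits apart from NDUFA13 thus lay between -0.27 and 0.11.

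**Figure D2:**
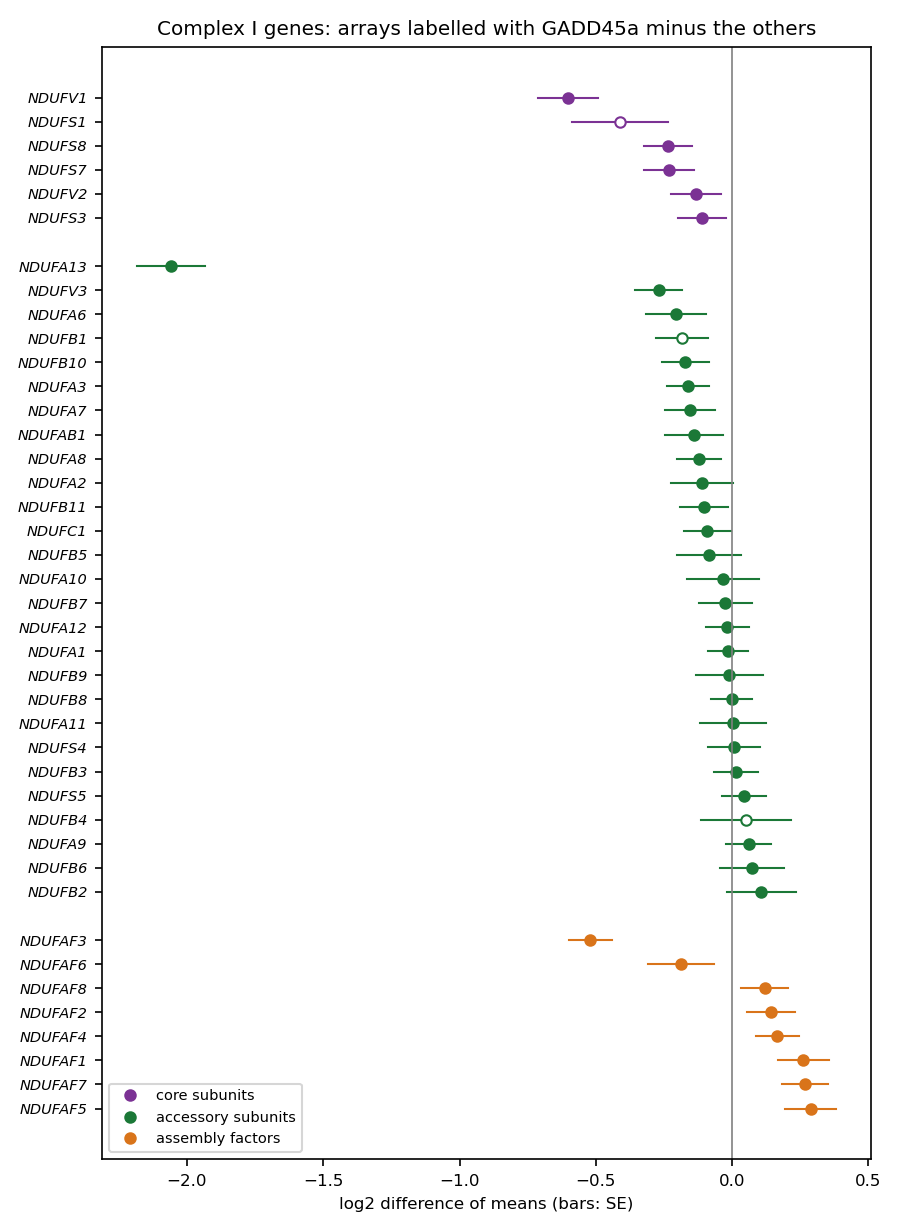
Difference of mean log2 intensity, arrays labelled GADD45a minus the others (x axis, log2 units, bars are SE, 6 arrays a side), for 41 genes (y axis) ordered within core subunits, accessory subunits and assembly factors; open points mark genes detected on fewer than 12 arrays. NDUFA13 stands apart at -2.06, all 6 core subunits lie left of 0, and 6 of 8 assembly factors lie right of 0.

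The NDUFAF assembly factors had a median of 0.15, with 6 of 8 above 0. NDUFAF5, which hydroxylates an arginine of NDUFS7, was the highest member at 0.29 (SE 0.09), with a second probe at 0.24. NDUFAF7, a mitochondrial methyltransferase, was at 0.27 (SE 0.08), with further probes at 0.34 and 0.36. NDUFAF1, which helps to build the membrane arm, was at 0.26 (SE 0.09). NDUFAF4 was at 0.17, although its second probe was at -0.15, and NDUFAF2, a paralogue of the subunit NDUFA12, was at 0.14. NDUFAF8 was at 0.12 and NDUFAF6 at -0.19. Under median scaling NDUFAF2 and NDUFAF4 turned to -0.03 each and 3 of the 8 were above 0, but relative to the shifted median of all genes 6 of 8 were still higher. Probes also disagreed in sign for NDUFA10, at -0.03 and 0.09, and for NDUFB3, at 0.02 and -0.02.

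**Figure D3:**
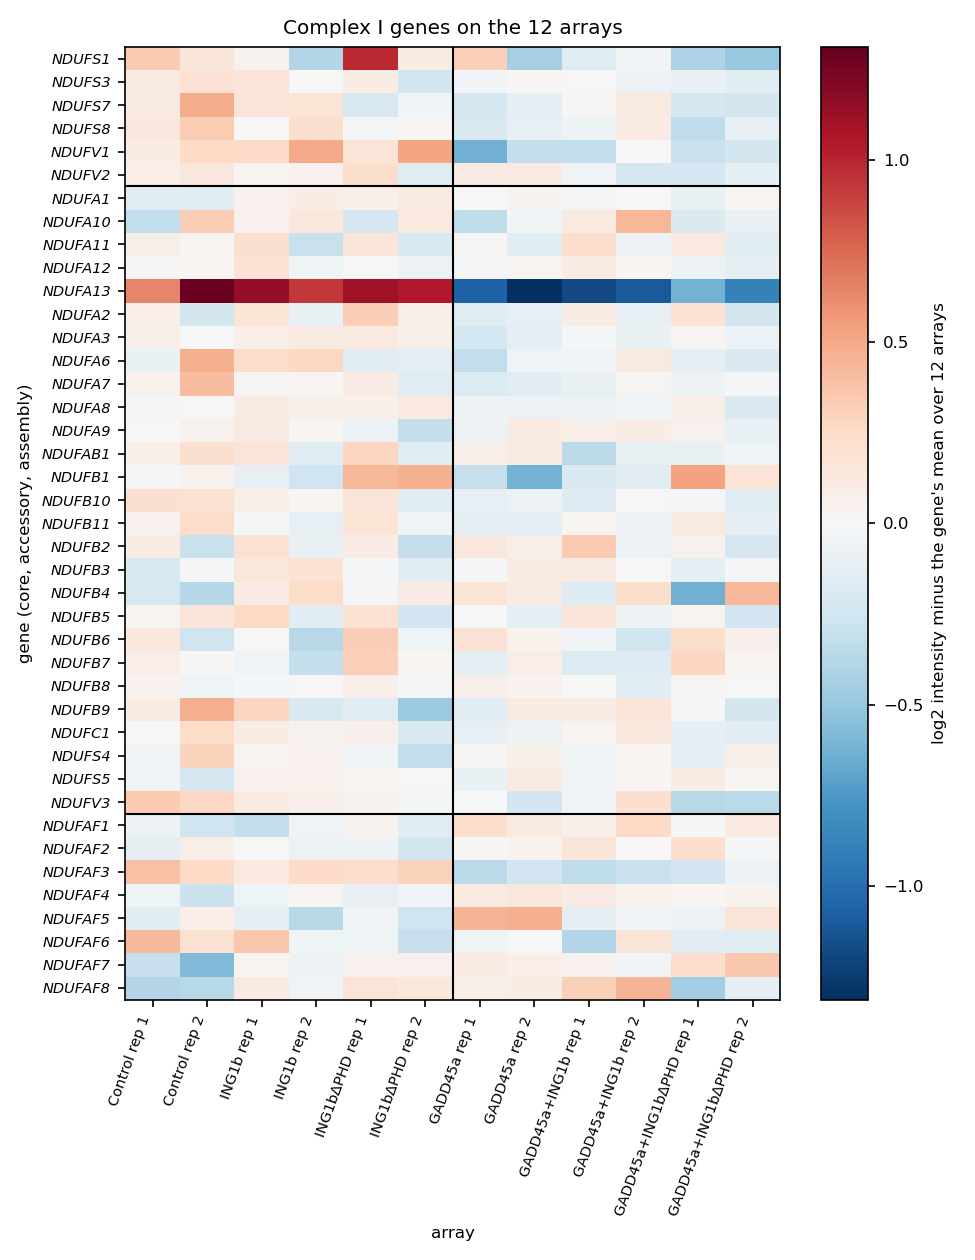
Log2 intensity minus the gene's own mean over the 12 arrays (colour, log2 units) for 41 genes (rows: core, accessory, assembly) and 12 arrays (columns), with the arrays labelled GADD45a right of the vertical line. NDUFA13 has the strongest contrast across the line, NDUFV1 and NDUFAF3 are weaker, and most other genes vary by little between arrays.

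Within single pairs of groups, which the rule also used and from which nothing is read, NDUFA13 was the only member called lower in GADD45a against Control (0.658% of all genes called in either direction), in GADD45a+ING1b against ING1b (0.357%) and in GADD45a+ING1bΔPHD against ING1bΔPHD (0.0939%). With the replicate number as a block, 4 members were called in GADD45a against Control, namely NDUFA13, NDUFAF3, NDUFAF7 and NDUFV1, beside 3.67% of all genes in that fit. In the ING1bΔPHD pair the count was 0 when any 1 of those 4 arrays was left out, which leaves 1 array in a group, while the NDUFA13 difference stayed between -1.97 and -1.70.

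NDUFA13 was measured independently of the rule by the comparisons of ING1b forms, which average over the GADD45a label and keep their value if labelled and unlabelled arrays were exchanged as a whole. Against the mean of Control and GADD45a, the groups without an ING1b form, full-length ING1b gave 0.06 (95% interval -0.28 to 0.39, limma adjusted p = 0.911). ING1bΔPHD minus the same reference gave 0.27 (-0.06 to 0.61, limma adjusted p = 0.545), and full-length minus deleted form gave -0.22 (-0.56 to 0.12, limma adjusted p = 0.597). None of these passed the test, and the intervals exclude a difference of the size seen with the label. The difference with the label did not pass a test of change with ING1b (-0.03, interval -0.71 to 0.64) or with ING1bΔPHD (0.31, interval -0.36 to 0.99), with limma adjusted p near 1 in both. Those intervals are wide beside the differences of -2.19 and -1.84.

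For full-length ING1b, averaged over the GADD45a label, against the mean of Control and GADD45a, 0 members passed the test. Of all genes 163 passed (1.53%). At an unadjusted limma p below 0.05, 2 members passed, beside 14.9% of all genes. Both act as assembly factors. NDUFAF5 was at -0.38 (SE 0.11, limma adjusted p = 0.17), with 9.22 and 9.45 in Control, 9.23 and 9.00 in ING1b, 9.81 and 9.84 in GADD45a, and 9.25 and 9.33 in GADD45a+ING1b. The 2 GADD45a arrays were the highest of these, and the other groups overlapped. NDUFAF8, which stabilises NDUFAF5, was at 0.35 (SE 0.11, limma adjusted p = 0.17), with 6.89 and 6.91 in Control, 7.40 and 7.23 in ING1b, 7.36 and 7.38 in GADD45a, and 7.59 and 7.72 in GADD45a+ING1b. ING1b arrays were higher than their own reference in both settings, a pattern whose share over all genes was not counted. NDUFV1 came next at 0.25 (SE 0.13, limma adjusted p = 0.426). The median over the 41 genes was 0.03, with 24 above 0, and over all genes -0.01.

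For ING1bΔPHD, averaged over the GADD45a label, against the mean of Control and GADD45a, limma called 0 members and 0 genes in all (0%). At an unadjusted p below 0.05 there were 5 members, beside 1166 genes (11%). NDUFB1, an accessory subunit of the membrane arm, was at 0.63 (SE 0.12, limma adjusted p = 0.139). NDUFAF7 was at 0.35 (SE 0.10, limma adjusted p = 0.271), and its values were 9.27 and 9.00 in Control against 9.63 on both ING1bΔPHD arrays, and 9.68 and 9.66 in GADD45a against 9.81 and 9.93 in GADD45a+ING1bΔPHD. By this probe the ING1bΔPHD arrays lay above their reference in both settings, a pattern whose share over all genes was not counted. The gene's other probes were at 0.35 and 0.08. By the last of these, GADD45a+ING1bΔPHD, at 8.01 and 8.21, lay below GADD45a, at 8.29 and 8.34. NDUFV3 was at -0.27 (SE 0.10, limma adjusted p = 0.39).

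The comparison of full-length ING1b with ING1bΔPHD, which bears on the PHD domain, called 1 member, NDUFB1, lower with the full-length form (-0.58, SE 0.12, 95% interval -0.84 to -0.32, limma adjusted p = 0.044). Of all genes 0.254% were called lower and 1.45% in either direction. NDUFB1 measured 5.79 and 5.64 in ING1b, 5.71 and 5.75 in GADD45a+ING1b, 6.34 and 6.36 in ING1bΔPHD, and 6.43 and 6.08 in GADD45a+ING1bΔPHD. The 4 ING1bΔPHD arrays were above the 4 full-length arrays without overlap, a pattern whose share over all genes was not counted. Control, detected on both arrays, measured 5.88 and 5.95, and GADD45a, detected on neither, measured 5.60 and 5.28. The probe was detected on 4 of 4 ING1bΔPHD arrays and on 0 of 4 full-length arrays, so under these settings its signal was at least 1.35-fold higher with the deleted form, with undetected arrays at their detection floor. With the replicate number as a block the adjusted p was 0.0177. The call was lost (limma adjusted p up to 0.204) in 7 of the 9 alternatives that gave a value, and in 11 of 12 fits without 1 array, while the difference stayed between -0.85 and -0.21.

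**Figure D4:**
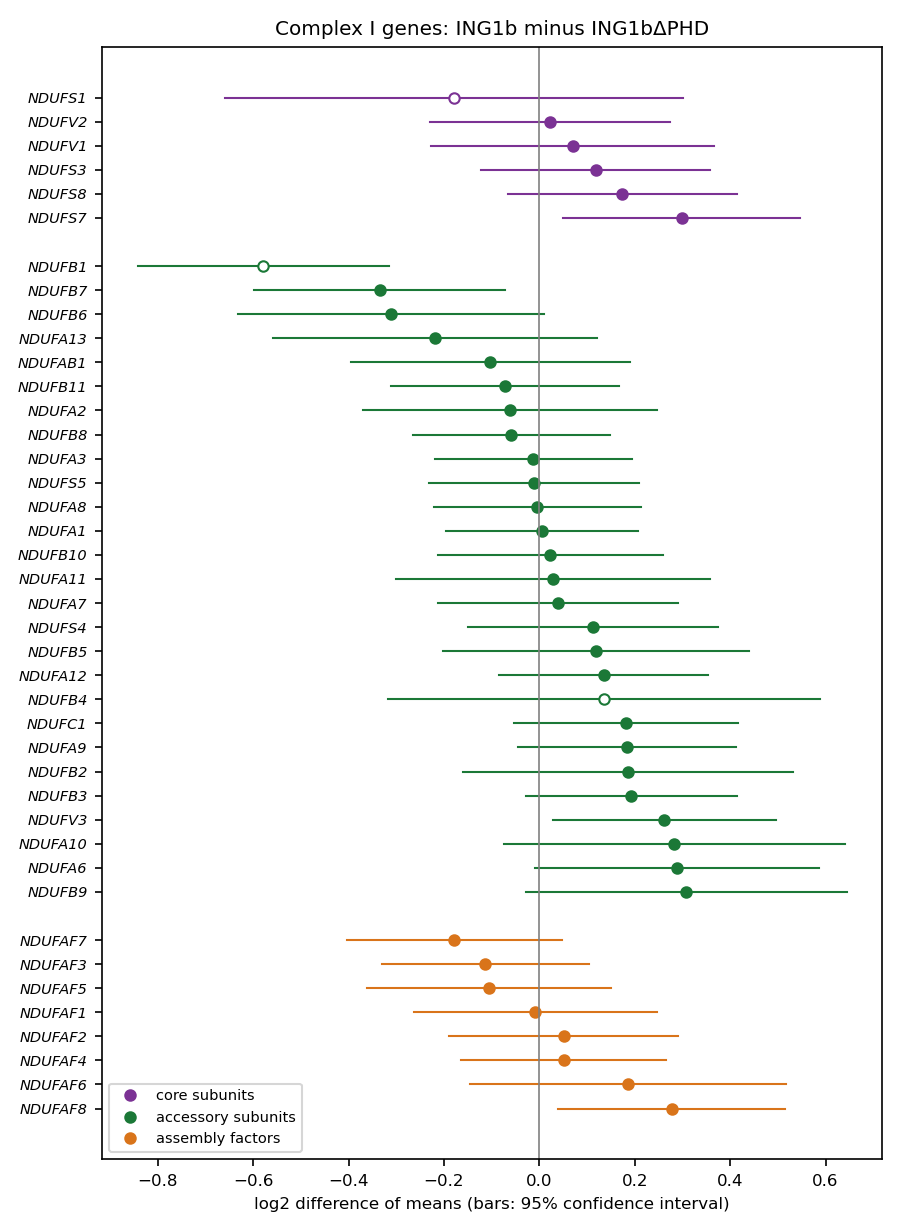
Difference of mean log2 intensity, full-length ING1b minus ING1bΔPHD averaged over the GADD45a label (x axis, log2 units, bars are 95% confidence intervals, 4 arrays a side), for 41 genes (y axis) ordered within core subunits, accessory subunits and assembly factors; open points mark genes detected on fewer than 12 arrays. NDUFB1 is lowest at -0.58, and the other genes lie between -0.34 and 0.31.

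At an unadjusted limma p below 0.05, 5 members passed in that comparison, beside 13.4% of all genes. NDUFB7, another membrane-arm subunit, was at -0.34 (SE 0.12, limma adjusted p = 0.239), with 11.16, 10.89, 11.03 and 11.04 on the full-length arrays and 11.51, 11.23, 11.48 and 11.23 on the ING1bΔPHD arrays. NDUFS7, which carries the last cluster before ubiquinone, was at 0.30 (SE 0.11, limma adjusted p = 0.268), with 11.17, 11.18, 11.02 and 11.12 against 10.80, 10.97, 10.77 and 10.76. Neither pair of sets overlapped, but neither gene passed the adjusted test. The share of all genes that separate in this way was not counted, so nothing is read from it. The 3 probes of NDUFAF7 disagreed here, at -0.18, -0.38 and 0.22, as did those of NDUFAF4, at 0.05 and -0.12. The median over the 41 genes was 0.04, with 25 above 0.

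**Figure D5:**
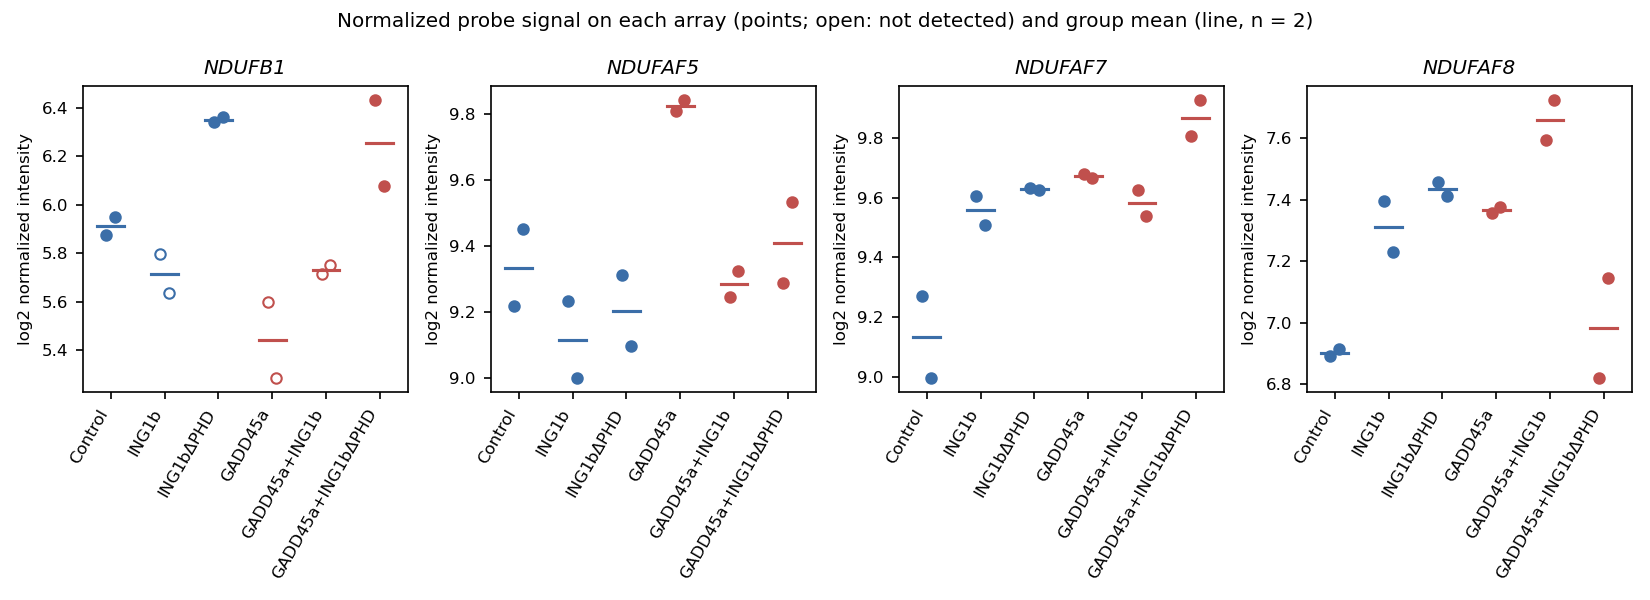
Normalized log2 intensity (y axis, log2 units, a separate scale per gene) of NDUFB1, NDUFAF5, NDUFAF7 and NDUFAF8 on each array by group, with the group mean of 2 arrays as a line and open points for arrays on which the probe was not detected; blue marks groups without and red groups with GADD45a in the label. NDUFB1 is highest with ING1bΔPHD (6.08 to 6.43), and NDUFAF8 lies at 6.82 and 7.14 in GADD45a+ING1bΔPHD.

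Whether the difference with the label changed with ING1b or with ING1bΔPHD was tested as an interaction, and limma called 0 members and 0 genes (0%) in each. At an unadjusted p below 0.05 there was 1 member in each, beside 4.15% and 4.56% of all genes. NDUFAF7 differed by -0.51 with ING1b (SE 0.20, limma unadjusted p = 0.0297, adjusted p near 1), with GADD45a 0.54 above Control and GADD45a+ING1b 0.03 above ING1b. Its other probes were at -0.48 and 0.18, so only the last went the other way. NDUFAF8 differed by -0.92 with ING1bΔPHD (SE 0.21, limma unadjusted p = 0.00154, adjusted p = 0.997). Its values were 6.89 and 6.91 in Control, 7.36 and 7.38 in GADD45a, 7.46 and 7.41 in ING1bΔPHD, and 6.82 and 7.14 in GADD45a+ING1bΔPHD. The labelled arrays were thus the higher ones beside Control and the lower ones beside ING1bΔPHD.

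Over the 12 arrays, NDUFAF3 (Pearson r = 0.93), NDUFV1 (0.86) and NDUFA3 (0.79) followed NDUFA13 most closely among members, and NDUFAF1 ran most opposite (-0.81). Across all genes the 5 most alike were SAC3D1 (0.98), INF2 (0.98), PLEKHH2 (0.96), UCK1 (0.96) and TBCB (0.96). SAC3D1, INF2 and TBCB, detected on all 12 arrays, had label differences of -1.78, -1.70 and -1.53. PLEKHH2 and UCK1 were detected on the 6 unlabelled arrays and on 0 labelled ones, where their signals were at least 1.20-fold and 1.43-fold lower. The arrays fall into separate sets by label, so these values describe that step and the shared arrays. Of the genes beside NDUFA13 on chromosome 19, GATAD2A, 7292 bp before it, was detected on 12 arrays with a label difference of 0.22, and YJEFN3, 712 bp after it, on 3 arrays with 0.33. TSSK6, 676 bp before it, and CILP2, 10066 bp after it, were detected on 0 arrays. Only GATAD2A among these neighbours gave a signal above background throughout.

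The other respiratory chain lists are given beside complex I with the GADD45a label. The rule used that contrast, so nothing is read from their counts. Over all genes tested 1.69% were called lower, 1.02% higher and 2.71% in either direction. Among complex II genes (7), complex III genes (14), complex V genes (19) and assembly factors of complex I with other symbols (12), 0 were called, with medians of -0.01, -0.07, -0.05 and -0.06. Complex V had 18 of 19 genes below 0, the lowest at -0.19. Among 28 complex IV genes, with a median of -0.01, COX14, an assembly factor, was called lower at -0.90 (SE 0.11). Among 12 regulators of mitochondrial biogenesis, with a median of 0.11, GABPB1, a partner of GABPA, was called higher at 0.52 (SE 0.10). In full-length ING1b against ING1bΔPHD, COX17, a copper chaperone of complex IV, was the only gene of these lists called, at 0.50 (higher with the full-length form, SE 0.10, limma adjusted p = 0.044). Of all genes 1.45% were called there in either direction.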

How the data were processed

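RNA of 12 samples (6 groups, 2 replicates) was hybridised to Illumina bead arrays. The deposited scanner table gives each probe's intensity and its detection p-value on every array, exported by the authors with GenomeStudio 2011.1, per the submitters' processing notes; from its values the intensity is not normalized between arrays. A second intensity table deposited by the authors has values below 0 and equal quantiles, so it was taken as background-subtracted and quantile-normalized, and served as an alternative. Its background options: not given in the sources used here.

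Scanner intensities were background-corrected (nec, limma 3.58.1, R 4.3.3, offset 16), quantile-normalized and log2-transformed. Probes with a detection p below 0.01 on at least 2 arrays were kept, 17814 in all. Each gene was taken as its brightest such probe, which gave 10645 genes. Gene symbols came from the platform's probe annotation, in which 30113 probes have 1 symbol, 8 several and 17202 none. All 58 probes' symbols matched the RefSeq gene table. A model with 1 mean per group was fitted with limma to all 12 arrays for 9 comparisons, with Benjamini-Hochberg adjustment over all genes within each. The fits were tested on simulated data drawn independently for each array. That test does not show how they behave when same-numbered replicates share a shift. The number of arrays limits the precision. The p-values measure the spread between separately transfected samples, with any shift shared by same-numbered replicates included in it.

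The members and the gene lists were chosen with earlier results of these data known. Named were NDUFA13, members past the threshold or with the 3 smallest p-values in a comparison the rule did not use, the 5 highest and 5 lowest by the label, members whose probes disagree, the nearest neighbours of NDUFA13 and its 5 most alike genes; other members are named for their role. Same-numbered replicates deviated together in all 15 pairs of groups (correlation of replicate differences 0.246 to 0.477), so the numbers pair the samples. The main fit has no replicate block, so its SE, intervals and p-values include the shift shared by same-numbered replicates. The blocked value is given where it changes a call or a count of members. With the block, the share of all genes called rose from 2.71% to 8.88% with the GADD45a label. It rose from 1.53% to 3.76% for full-length ING1b, and from 1.45% to 4.38% for full-length ING1b against ING1bΔPHD.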

Additional observations from a re-analysis of the deposited data

How the results depend on the processing

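The alternatives were 10 other settings and the 12 fits that leave out 1 array. Members called with the GADD45a label numbered 3 to 8 over the settings, 8 under median scaling, and 2 to 3 without 1 array (2 without Control replicate 2, for example). Median scaling shifted the median of all genes by -0.17 there, by -0.22 in GADD45a against Control, by -0.21 in GADD45a+ING1b against ING1b and by 0.13 in the interaction with ING1bΔPHD. It raised the share of lower calls among all calls with the label from 62.3% to 96.4%. In GADD45a against Control the members called were 1, but 2 without background correction (1.17% of all genes), 5 under median scaling (4.08%), 2 with trend and robust moderation (1.09%) and 4 with the replicate block (3.67%), which moved no other count of members. In GADD45a+ING1bΔPHD against ING1bΔPHD the count was 0 to 1 without 1 array. For full-length ING1b against ING1bΔPHD it was 0 without background correction, with an offset of 50, with median scaling, with the deposited values, with no filter, with detection on all 12 arrays (which drops NDUFB1), with every probe singly and with trend and robust moderation, and 0 to 1 without 1 array. The remaining comparisons kept their counts, 1 or 0, throughout. NDUFA13 stayed lower with the label, at -2.25 to -1.80 over the settings and -2.17 to -1.95 without 1 array. Of the 5 highest and 5 lowest members by the label, NDUFAF2 (-0.0302) and NDUFAF4 (-0.0289) turned sign, both under median scaling. Further members turned there too. All 27 accessory subunits were then below 0, against 19 in the main fit, and 5 of 8 assembly factors, against 2. Relative to the shifted median of all genes, 16 accessory subunits were below it, against 17 in the main fit. NDUFA13 turned with ING1b to -0.0285 under median scaling, and ranged from -0.11 (without Control replicate 1) through -0.01 (without GADD45a replicate 2) to 0.22 without 1 array. Its interaction with ING1b turned to 0.0093 under median scaling and ranged from -0.36 to 0.30 without 1 array, and that with ING1bΔPHD ranged from -0.0156 (without Control replicate 2) to 0.64. None of these NDUFA13 values passed the test, and the cause of the changes was not tested. Signal near background limits NDUFB1, NDUFB4 and NDUFS1, which were detected on 6, 6 and 5 arrays.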
